A study of Drosophila melanogaster with 34 samples.

Results

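The Malpighian tubules are the renal organ of the fly, and 8 genes of tubule transport and signalling were followed across copper exposure: the inward rectifier potassium channels *Irk1*, *Irk2* and *Irk3*, the sodium-solute transporter *salt* (*salty dog*), the neuropeptide receptor *CapaR*, the urate oxidase *Uro*, the cotransporter *Ncc69* and the water channel *Drip*. They are 8 of the 16495 genes in the count table. They were chosen because *Irk3* and *salt* were lower with copper in the sensitive strains, so the values of that contrast, of its strains and of its difference from the tolerant strains are given as descriptions with no test. That choice, made with earlier results of these data known, did not use the tolerant strains, and tests are given there.

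RNA-seq was performed on whole mated *D. melanogaster* females of 6 European strains, each inbred for 20 generations, with 20 females pooled per library. Copper-exposed flies were held for 24 h on papers carrying 20 mM CuSO4 in 5% sucrose, and control flies on the same sucrose without copper; both solutions carried a food dye. The females were 3 to 7 days old by the series record, and the study's methods give a slightly later start. AKA-018, COR-018 and JUT-008 are labelled copper sensitive (9 copper and 8 control libraries), and GIM-012, MUN-008 and MUN-020 copper tolerant (9 copper and 8 control libraries). Each strain had 3 libraries per treatment, apart from the AKA-018 and MUN-020 controls with 2. Each class is 3 inbred strains, flies of JUT-008 and COR-018 that had died were left out of the extraction, and replicates were picked by RNA quality.

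In the tubule, principal cells carry a proton pump (V-ATPase) that energizes potassium secretion, with potassium entering through basolateral channels and the Na-K-2Cl cotransporter Ncc69. Stellate cells pass chloride, and water through aquaporins such as Drip. Capa peptides act on principal cells through CapaR, and Uro, an enzyme and not a transporter, degrades urate in the tubule. The tubule is a small share of a whole fly, and in whole-body RNA fewer cells of a type and less RNA per cell cannot be told apart.

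Library totals were 22796637 to 42567920 counts (median 35393968). All 5 tubule identity markers were detected in all 34 libraries, from *tio* (1.39 to 6.99 CPM) to *Alp4* (39.5 to 356 CPM), where CPM is each gene's count scaled to a common library size after TMM normalization. The 3 yolk protein genes were high throughout, with *Yp1* never below 1757 CPM. The 5 male markers in the table summed to 1.31 to 35.8 CPM in sensitive controls and 5.68 to 10.8 CPM in tolerant controls. In AKA-018 they summed to 25.6 to 27.3 CPM in controls, against 7.25 to 9.76 CPM with copper. *Irk3* had 307 to 2161 counts per library and *salt* 463 to 5413, whereas *CapaR* had 64 to 228, the lowest of the 8.

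The genes lie apart on the dm6 assembly. *Irk3* (FBgn0032706) is at 2L:18711071-18713748 on the minus strand and *salt* (FBgn0039872) at 3R:31751825-31754705, also on the minus strand. *Irk1* (FBgn0265042, 3R:23168317-23185642, plus strand) and *Irk2* (FBgn0039081, 3R:23513617-23519445, minus strand) share that arm. *CapaR* (FBgn0037100) is at 3L:21558974-21562181, *Uro* (FBgn0003961) at 2L:7780085-7781415, *Ncc69* (FBgn0036279) at 3L:12368646-12391444 and *Drip* (FBgn0015872) at 2R:11411203-11429645. All 8 are protein coding. In the annotation used here *Irk1* shares 3202 of its 5246 exon bases with *CG46310* on the same strand, a gene not counted in the table, so its counts are less certain than those of the others. *Irk3* and *salt* overlap a gene only on the opposite strand, by 227 and 70 bases, and the counting used strand.

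Corrected for exon length, *salt*, *Uro* and *Irk2* had the highest levels over the 34 libraries, at 34.7 ± 20.1, 31.9 ± 13.1 and 25.1 ± 8.2 RPKM (CPM per kb of exon, SD, n = 34). *Irk1*, *Irk3*, *Drip* and *Ncc69* lay close together, at 16.7 ± 2.4, 15.0 ± 6.7, 13.8 ± 3.7 and 13.7 ± 4.9 RPKM. *CapaR* was lowest, at 1.82 ± 0.49 RPKM. The ranges of the first 7 overlapped, and *CapaR* lay below all of them in every library.

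*Irk3*, a potassium channel enriched in tubules, was lower with copper in every library of all 3 sensitive strains. In AKA-018 it had 21.2, 17.8 and 22.9 CPM in copper libraries, against 43.5 and 44.2 CPM in control libraries. In COR-018 it had 20.1, 19.9 and 18.7 CPM with copper, against 55.3, 46.4 and 55.6 CPM in controls. In JUT-008 it had 9.95, 10.4 and 11.4 CPM with copper, against 27.3, 30.5 and 20.2 CPM in controls. No copper library reached the lowest control of its own strain, and mean copper levels were 37.4% to 47.1% of the control mean. The fitted log2 fold change over the 3 strains was -1.29 ± 0.08 (SE).

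The solute transporter *salt* showed the same arrangement. In AKA-018 it had 82.3, 57.0 and 82.8 CPM with copper, against 161 and 169 CPM in controls. In COR-018 it had 35.8, 36.1 and 29.0 CPM with copper, against 104, 96.6 and 102 CPM in controls. In JUT-008 it had 17.5, 17.3 and 13.8 CPM with copper, against 54.7, 64.2 and 46.6 CPM in controls. Copper and control libraries did not overlap within any of the 3 strains, and copper means were 29.4% to 44.9% of control. The fitted log2 fold change was -1.53 ± 0.10 (SE).

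**Figure D1:**
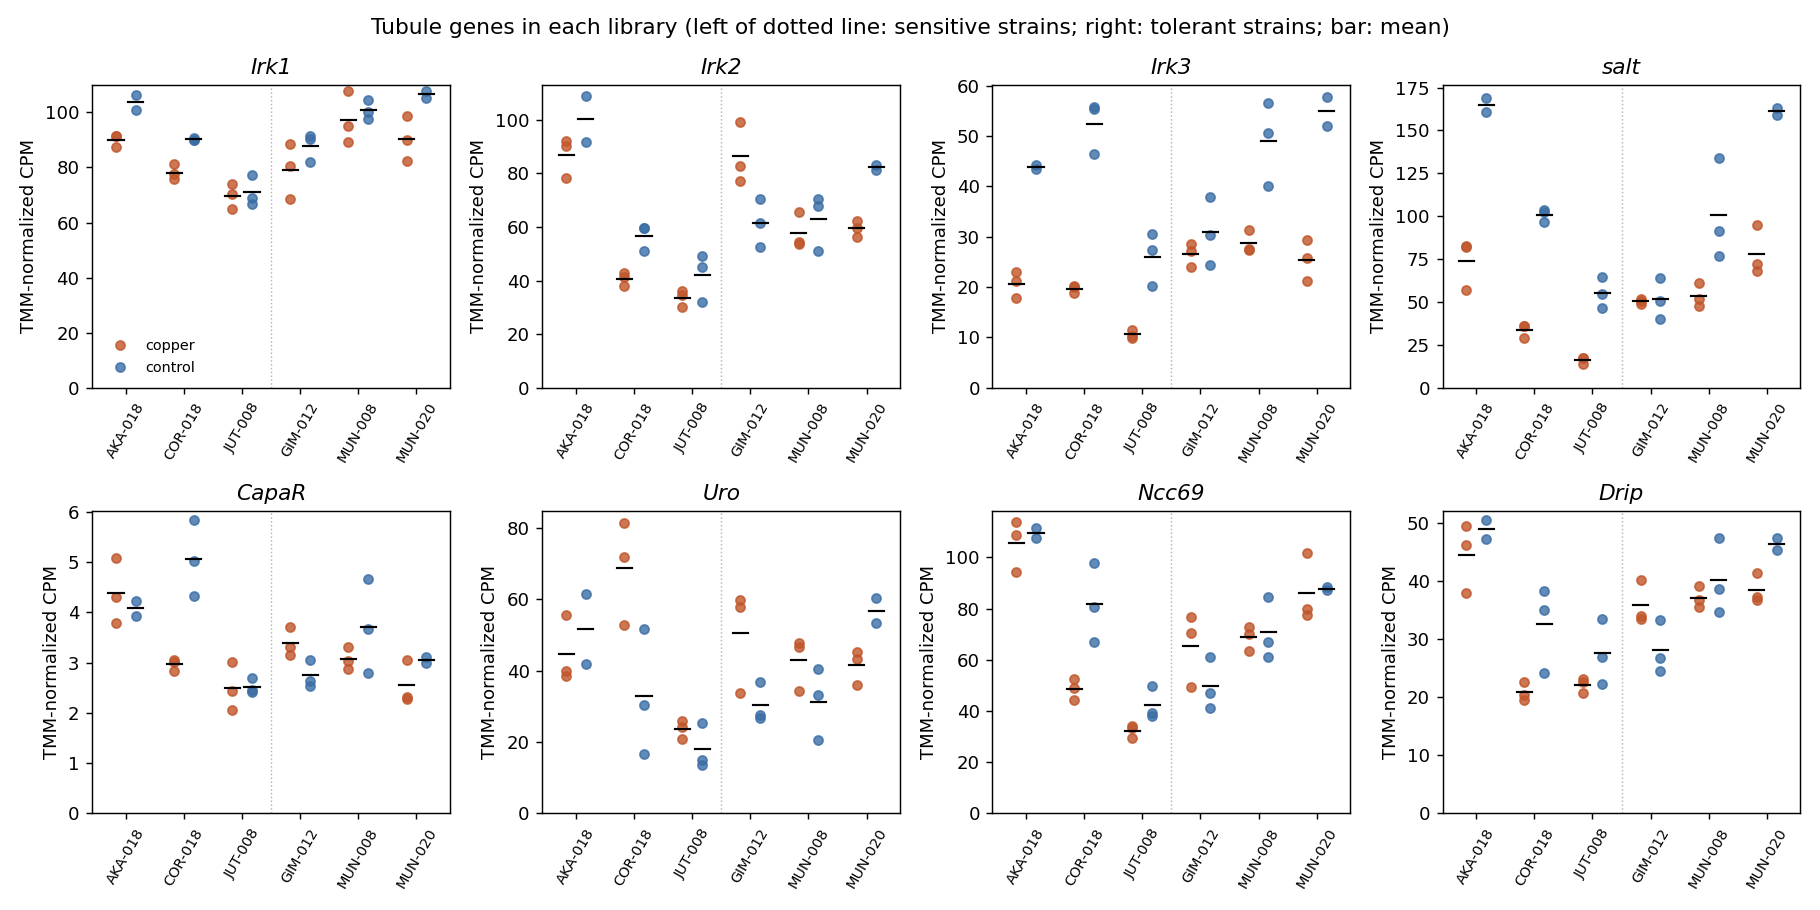
TMM-normalized CPM (y axis) of the 8 tubule genes in each of the 34 libraries by strain (x axis), with copper libraries left of control libraries within a strain and bars at the mean; sensitive strains are left of the dotted line and tolerant strains right of it. *Irk3* and *salt* copper libraries lie below all controls of their strain everywhere except GIM-012, while each of the other 6 genes overlaps in 3 or 4 of the 6 strains.

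The remaining 6 genes moved less in the sensitive strains. *Ncc69* had a log2 fold change of -0.43 ± 0.10, *Drip* of -0.38 ± 0.11, *Irk2* of -0.35 ± 0.08, *CapaR* of -0.26 ± 0.14 and *Irk1* of -0.15 ± 0.04 (SE). *Uro* alone was higher with copper, at 0.45 ± 0.24. A gene was called differentially expressed (DEG) at a Benjamini-Hochberg adjusted *p*-value under 0.05 and a fold change over 1.5, and 2 of the 8 genes were called, both lower. Of all 12308 genes tested 7.75% were called, and 5.94% were called lower. At the adjusted *p*-value alone 6 of the 8 were lower, against 15.2% of all genes, and the contrast chose the genes, so nothing is read from these shares.

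For 5 of those 6 genes, all but *Irk1*, the change in the sensitive strains was largest in COR-018. *Ncc69* had 52.4, 44.2 and 48.9 CPM with copper in COR-018, against 97.9, 67.1 and 80.5 CPM in controls, a log2 fold change of -0.74 ± 0.17 (SE). *CapaR* had 2.83, 3.01 and 3.05 CPM with copper there, against 5.83, 5.02 and 4.32 CPM in controls, with no overlap. *Drip* did not overlap either, at 19.6 to 22.7 CPM with copper against 24.3 to 38.3 CPM in controls. *Uro* went the other way in that strain, at 71.9, 81.5 and 52.8 CPM with copper against 30.3, 16.7 and 51.6 CPM in controls. Without COR-018 the log2 fold change over the sensitive strains was 0.03 for *CapaR* and -0.25 for *Ncc69*. In AKA-018 and JUT-008, *Irk3* and *salt* were the only 2 of the 8 genes past the threshold.

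Counted by strain, the genes called lower were 2 of 8 in AKA-018, where 0.991% of all genes were called lower. They were 5 of 8 in COR-018 (8.55% of all genes) and 2 of 8 in JUT-008 (5.18%). Genes with every copper library below every control library were 3 of 8 in AKA-018 (*Irk1*, *Irk3* and *salt*; 17.9% of all genes), 7 of 8 in COR-018 (all but *Uro*; 24.9%) and 3 of 8 in JUT-008 (*Irk3*, *salt* and *Ncc69*; 13.8%). These shares describe the strains that chose the genes.

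In the tolerant strains, *Irk3* and *salt* fell as well, and the other 6 genes did not pass the test. *Irk3* was at 62.8% of control, with a log2 fold change of -0.67 ± 0.13 (SE) and an adjusted *p*-value of 0.00705 by edgeR's quasi-likelihood test. *salt* was at 64.1% of control, with -0.64 ± 0.16 and an adjusted *p*-value of 0.037. Only 0.509% of the 11602 genes tested were called lower. The other log2 fold changes were -0.14 ± 0.06 for *Irk1*, -0.01 ± 0.13 for *Irk2*, -0.06 ± 0.13 for *CapaR*, 0.28 ± 0.18 for *Uro*, 0.12 ± 0.11 for *Ncc69* and 0.00 ± 0.10 for *Drip*, with adjusted *p*-values of 0.409 or more. The *Irk3* call held in all 17 fits that left out 1 library, with adjusted *p*-values of 0.000943 to 0.0202, and the *salt* call held in 7 of 17. Both calls were lost without MUN-020 (log2 fold changes of -0.49 and -0.47) and without MUN-008 (-0.61 and -0.48). Without GIM-012 the log2 fold changes were -0.90 for *Irk3* and -0.95 for *salt*.

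The tolerant strains did not respond alike. In MUN-020 *Irk3* had 21.2, 25.7 and 29.4 CPM with copper, against 57.7 and 52.0 CPM in controls. In MUN-008 it had 27.4, 31.3 and 27.6 CPM with copper, against 39.98, 50.5 and 56.5 CPM in controls. In GIM-012 it had 24.0, 27.1 and 28.6 CPM with copper, against 30.3, 37.8 and 24.4 CPM in controls. Copper libraries lay below all controls in MUN-020 and MUN-008 and overlapped them in GIM-012. *Irk3* fell in MUN-020 (log2 fold change -1.12 ± 0.17, adjusted *p*-value 0.00136) and MUN-008 (-0.77 ± 0.16, adjusted *p*-value 0.00643), and was at -0.17 ± 0.16 in GIM-012 (adjusted *p*-value 0.442, edgeR).

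The pattern of *salt* matched strain by strain. In MUN-020 it had 67.8, 72.0 and 94.9 CPM with copper, against 163 and 159 CPM in controls. In MUN-008 it had 47.4, 61.3 and 51.8 CPM with copper, against 76.6, 91.3 and 134 CPM in controls. In GIM-012 it had 50.4, 51.7 and 48.9 CPM with copper, against 50.7, 63.9 and 39.96 CPM in controls. The GIM-012 controls were already near the copper level of MUN-008, and copper libraries there sat inside the control range. *salt* fell in MUN-020 (-1.05 ± 0.21, adjusted *p*-value 0.00855) and MUN-008 (-0.91 ± 0.19, adjusted *p*-value 0.0072), and was at 0.01 ± 0.19 in GIM-012 (adjusted *p*-value 1, edgeR). The 95% interval in GIM-012, -0.38 to 0.40, did not reach the fold changes of the other 5 strains.

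Those 2 genes were the 2 of 8 called in MUN-008, where 0.863% of all genes were called lower, and in MUN-020, where 0.583% were. In MUN-008 both calls were lost without copper replicate 1 (adjusted *p*-values of 0.0506 for *Irk3* and 0.07 for *salt*) or control replicate 4 (0.0502 and 0.0844), and the *salt* call was lost with MUN-008 fitted alone (-0.91, adjusted *p*-value 0.084). In MUN-020 the *Irk3* call held in all 5 fits without 1 library and the *salt* call in 1 of 5, being lost without either control replicate and without copper replicates 1 and 2, with adjusted *p*-values up to 0.153. DESeq2 called 1 of the 8 genes in MUN-020, *salt*, and gave no adjusted *p*-value for 4, *Irk3* among them. Genes with every copper library below every control were 2 of 8 in MUN-008 (8.26% of all genes), 6 of 8 in MUN-020 (28.7%) and 0 of 8 in GIM-012 (15.8%).

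**Figure D2:**
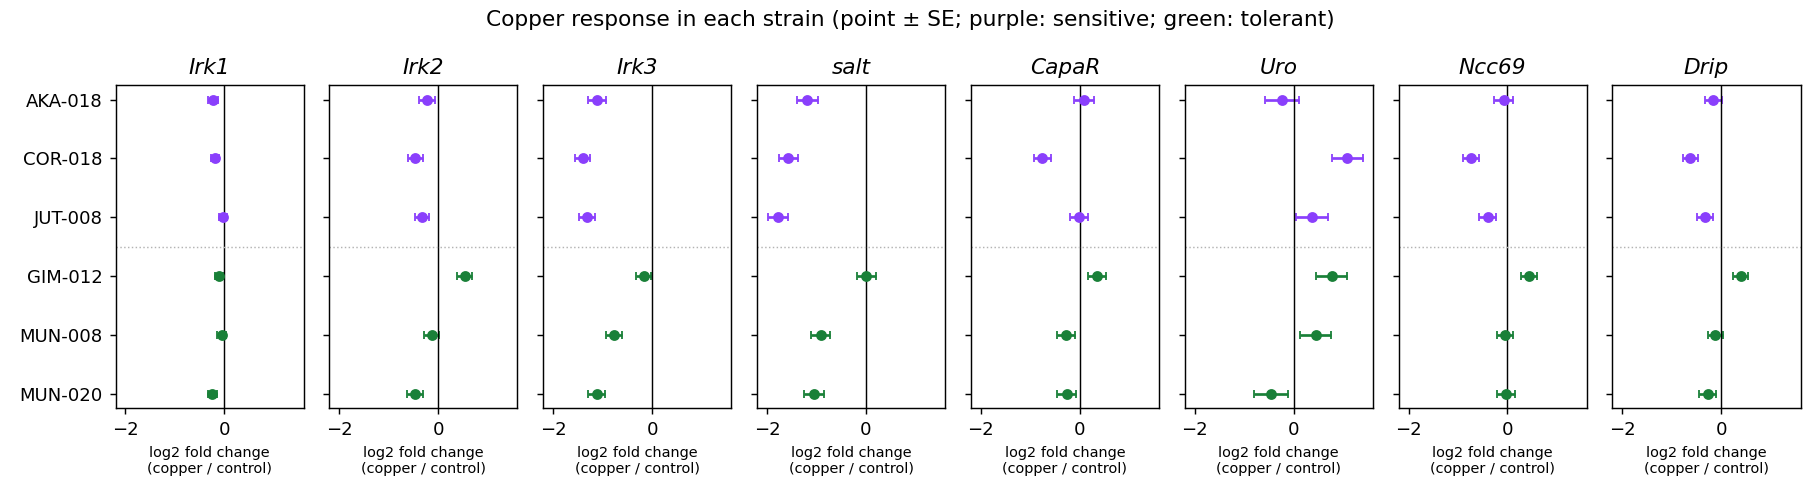
Log2 fold change of copper over control (x axis, point ± SE) of each tubule gene in the 6 strains (y axis), with sensitive strains in purple above the dotted line and tolerant strains in green below it. *Irk3* and *salt* lie between -0.77 and -1.78 in 5 strains and near 0 in GIM-012, where 5 of the other 6 genes lie right of 0.

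An F-test of strain by treatment among the 3 tolerant strains, added after the data were seen, passed an adjusted *p*-value of 0.05 for *Irk2* (0.00519), *salt* (0.00976) and *Irk3* (0.0111), 3 of 8 genes, with 27.7% of all genes passing it. It did not pass for *Drip* (0.0613), *CapaR* (0.0952), *Uro* (0.107), *Ncc69* (0.206) or *Irk1* (0.508).

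*Irk2*, a channel also expressed outside the tubule, had 99.3, 82.7 and 77.3 CPM with copper in GIM-012, against 61.4, 70.4 and 52.7 CPM in controls, with no overlap. Its log2 fold change was 0.53 ± 0.15 (adjusted *p*-value 0.00783, edgeR), under the fold threshold. Without GIM-012 control replicate 2 it was 0.59 (adjusted *p*-value 0.00413) and past both thresholds. In MUN-020 it had 59.7, 56.3 and 62.4 CPM with copper, against 83.2 and 81.4 CPM in controls, a log2 fold change of -0.48 ± 0.16 (adjusted *p*-value 0.161). *Drip* and *CapaR* copper libraries were above all GIM-012 controls as well, with log2 fold changes of 0.39 ± 0.16 and 0.35 ± 0.18 that did not pass the test (adjusted *p*-values 0.0608 and 0.143). Genes with every copper library above every control were thus 3 of 8 in GIM-012, against 18.2% of all genes. By edgeR 0 of 8 genes were called in GIM-012, where 12.4% of all genes were, with 4 at an unadjusted *p*-value under 0.05 and 0 called by DESeq2.

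*Uro* varied more between replicates than the others. Its GIM-012 libraries had 59.8, 33.7 and 57.8 CPM with copper, against 26.9, 37.0 and 27.6 CPM in controls, so copper replicate 2 fell inside the control range. The log2 fold change was 0.77 ± 0.31 (adjusted *p*-value 0.0642), and 0.99 (adjusted *p*-value 0.0292) without that library. In MUN-020 *Uro* was at -0.46 ± 0.34 (adjusted *p*-value 0.472), with all 3 copper libraries below both controls.

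Set between the classes, the copper response of sensitive strains minus that of tolerant strains was -0.63 ± 0.16 for *Irk3*, -0.90 ± 0.21 for *salt* and -0.56 ± 0.16 for *Ncc69* (log2, SE). It was -0.40 ± 0.15 for *Drip*, -0.35 ± 0.16 for *Irk2*, -0.21 ± 0.19 for *CapaR*, 0.15 ± 0.31 for *Uro* and -0.02 ± 0.07 for *Irk1*. Of the 8 genes, 3 were lower at an adjusted *p*-value under 0.05, against 3.41% of all 12511 genes, with nothing read from that count. GIM-012 weighed on these values: without it the difference was -0.37 for *Irk3* and -0.57 for *salt*, and none of the 3 genes kept its side of the threshold (edgeR). None of the 3 kept it without COR-018, without JUT-008, or with counts summed per strain and treatment, where strains and not libraries are the replicates. *Irk3* in MUN-020 (46.2% of control in the fit) was as low relative to its controls as in AKA-018 (46.2%).

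In control flies none of the 6 genes other than *Irk3* and *salt* passed the test between classes. Sensitive over tolerant log2 fold changes ran from -0.19 (*Uro*) to 0.31 (*CapaR*). They were -0.09 for *Irk3* and 0.06 for *salt*, given as descriptions because the sensitive controls entered the choice of genes. By edgeR 0 of the 6 genes were called, against 5.36% of all genes, with 0 at an unadjusted *p*-value under 0.05 and 0 called by DESeq2. For the 6 genes other than *Irk3* and *salt*, adjusted *p*-values were 0.726 or more, and the 95% intervals were as wide as -0.88 to 0.49 for *Uro*.

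Strains differed within the tolerant class. Among tolerant controls, an F-test passed an adjusted *p*-value of 0.05 for 7 of 8 genes, all but *CapaR* (0.0831), and for 52.4% of all genes. It passed for 4 of 8 without GIM-012 control replicate 4 and for 4 of 8 when counts were scaled by library size only. The lowest adjusted *p*-values were 3e-06 for *salt* and 0.000372 for *Irk3*. Control *salt* averaged 51.5 CPM in GIM-012, 55.2 in JUT-008, 101 in MUN-008, 101 in COR-018, 161 in MUN-020 and 165 in AKA-018, and GIM-012 overlapped JUT-008, MUN-008 overlapped COR-018 and MUN-020 overlapped AKA-018. Each of these pairs joined a tolerant and a sensitive strain. Control *Irk3* averaged 26.0 CPM in JUT-008 and 30.9 in GIM-012, which overlapped, and 43.9 to 54.9 CPM in the other 4 strains. With copper JUT-008 was lowest for both genes (10.6 CPM for *Irk3* and 16.2 CPM for *salt*), and it no longer overlapped GIM-012 or any other strain.

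*Irk3* and *salt* were also set against the other 6 tubule genes of the same library, as log2 CPM minus the mean log2 CPM of those 6. The measure was chosen after the data were seen, and it carries no test. The *Irk3* ratio with copper minus that in controls was -0.97 in AKA-018, -1.15 in COR-018, -1.18 in JUT-008, -0.83 in MUN-020, -0.75 in MUN-008 and -0.54 in GIM-012. The *salt* ratio was -1.06 in AKA-018, -1.32 in COR-018, -1.66 in JUT-008, -0.77 in MUN-020, -0.87 in MUN-008 and -0.35 in GIM-012. For both genes copper libraries lay below all controls in all 6 strains, GIM-012 included, and no share over all genes was worked out. For *salt* in GIM-012 the gap was narrow, with a highest copper ratio of 0.582 and a lowest control ratio of 0.593. There the mean of the 6 others was 5.11 to 5.35 with copper, against 4.73 to 5.05 in controls (log2 CPM), so the ratio moved while the levels of *Irk3* and *salt* overlapped.

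**Figure D3:**
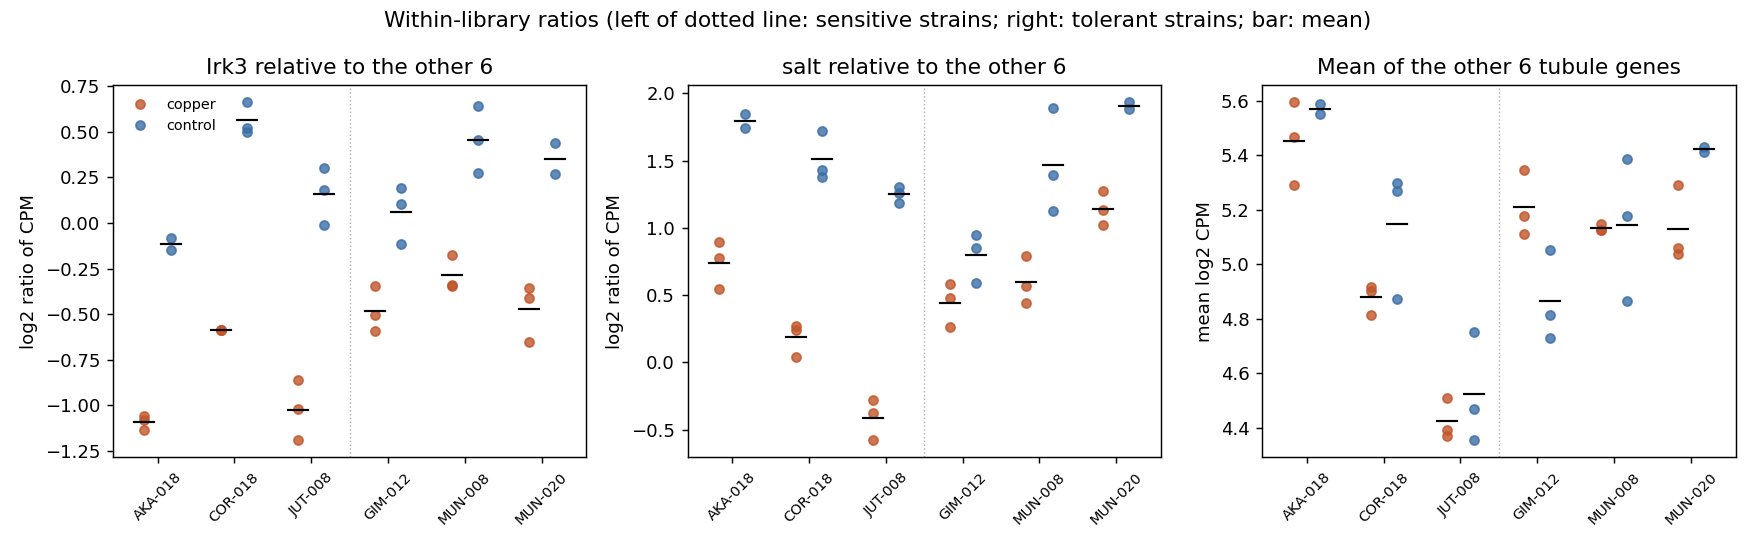
Log2 ratio of *Irk3* (left) and *salt* (middle) to the mean of the other 6 tubule genes, and that mean (right, log2 CPM), on the y axes, for each library by strain (x axis), copper left of control and bars at the mean. Both ratios are lower in all copper libraries than in any control of the same strain in all 6 strains, narrowly for *salt* in GIM-012. The mean of the others is higher with copper in GIM-012.

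Over the 12 strain and treatment groups, the mean log2 CPM of *Irk3* and *salt* correlated at Pearson's r = 0.894. Genes nearest to *Irk3*, among 10124 compared, were *CG32669* (r = 0.97), *CG10513* (0.951), *CG11892* (0.949), *CG13912* (0.921) and *CG15155* (0.919). Those nearest to *salt* were *CG5404* (0.98), *CG5618* (0.969), *CG9702* (0.968), *CG14762* (0.96) and *CG42700* (0.959). *Ncc69* and *Drip* went together at 0.896, while *Irk3* and *Uro* were at 0.179. The groups share strains and libraries, so these are descriptions.

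Among other tubule genes, several transporters of organic anions fell in the sensitive strains, where 5.94% of all genes were called lower. Of 13 organic solute and zinc transport genes 4 fell and 0 rose: *Oatp58Da* (log2 fold change -1.03 ± 0.16, adjusted *p*-value 0.000304), *Oatp33Ea* (-1.02 ± 0.16, 0.000325), *Oatp58Db* (-0.90 ± 0.13, 0.000166) and the ABC transporter *Mdr50* (-0.84 ± 0.14, 0.000496). The list median was -0.33, against -0.02 over all genes. Of 20 other ion and water transport genes 3 fell and 0 rose: the aquaglyceroporin *Eglp2* (-1.01 ± 0.12, adjusted *p*-value 3.13e-05), the cation/proton exchanger *Nha1* (-0.62 ± 0.08, 4.51e-05) and the bicarbonate exchanger *Ndae1* (-0.60 ± 0.09, 0.000244), with a median of -0.12. All adjusted *p*-values are from edgeR.

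Of 12 diuretic hormone, receptor and signalling genes the neuropeptide *Lk*, leucokinin, which acts on stellate cells, fell in the sensitive strains (-0.73 ± 0.13, adjusted *p*-value 0.000844). The list median was -0.16, and 5.94% of all genes were called lower. *Dh44*, a diuretic hormone gene, was at 0.58 ± 0.16 (adjusted *p*-value 0.0138), at the fold threshold and not past it. Of 5 tubule identity genes *Alp4*, an alkaline phosphatase of the tubule, fell (-0.97 ± 0.18, adjusted *p*-value 0.00163), while the transcription factor genes *ct*, *Hnf4*, *tsh* and *tio* did not pass the test.

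Of 15 listed V-ATPase subunit genes 10 were analysed, and the values here cover only those 10. All 10 had lower values with copper in the sensitive strains, from -0.08 (*VhaM9.7-b*) to -0.27 (*Vha16-1*). Of these 9 of 10 were at an adjusted *p*-value under 0.05, against 15.2% of all genes as lower. None of the 10 passed the 1.5-fold threshold by edgeR or DESeq2, with 9 at an unadjusted *p*-value under 0.05. All 10 were lower in the tolerant strains as well, with a median of -0.17 against -0.19 in the sensitive strains. The class difference passed for 0 of the 10 by edgeR or DESeq2, with 0 at an unadjusted *p*-value under 0.05. Of 6 purine and urate genes 0 were called by edgeR, with 4 at an unadjusted *p*-value under 0.05 and 1 called by DESeq2. *ry*, xanthine dehydrogenase, which makes the urate that Uro degrades, was at 0.58 ± 0.09 in the sensitive strains (adjusted *p*-value 0.000313) and 0.56 ± 0.11 in the tolerant strains (0.00784), in each just under the fold threshold.

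In the tolerant strains 0 of the 66 genes of these lists were called by edgeR or by DESeq2, with 14 at an unadjusted *p*-value under 0.05, and 1.53% of all genes were called. At the adjusted *p*-value alone, *VhaAC45* (-0.23 ± 0.05, 0.0148), *VhaPPA1-1* (-0.23 ± 0.05, 0.0181) and *fray* (-0.32 ± 0.08, 0.0335), a kinase gene upstream of Ncc69, were lower, against 1.01% of all genes. With libraries as replicates, the response of sensitive minus tolerant strains passed an adjusted *p*-value of 0.05 for 6 of the 66. Of all 12511 genes 517 passed it in either direction, and 3.41% passed it as lower. Lower were *Eglp2* (-0.90 ± 0.19, adjusted *p*-value 0.00766), *Oatp58Da* (-0.91 ± 0.21, 0.013), *Oatp58Db* (-0.86 ± 0.17, 0.00544), *Oatp33Ea* (-0.73 ± 0.22, 0.0484) and the sodium pump subunit *nrv2* (-0.54 ± 0.15, 0.0335). The molybdenum cofactor gene *mal* was higher (0.28 ± 0.08, 0.0429). With counts summed per strain and treatment 0 of the 6 passed by edgeR, each at an adjusted *p*-value of 0.893, and 0 of all 12703 genes did, with 454 at an unadjusted *p*-value under 0.05. Likewise 0 of the 6 passed without COR-018, without JUT-008 or without GIM-012. In control flies 0 of the 66 were called between classes by edgeR or DESeq2, with 3 at an unadjusted *p*-value under 0.05, against 5.36% of all genes called.

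**Figure D4:**
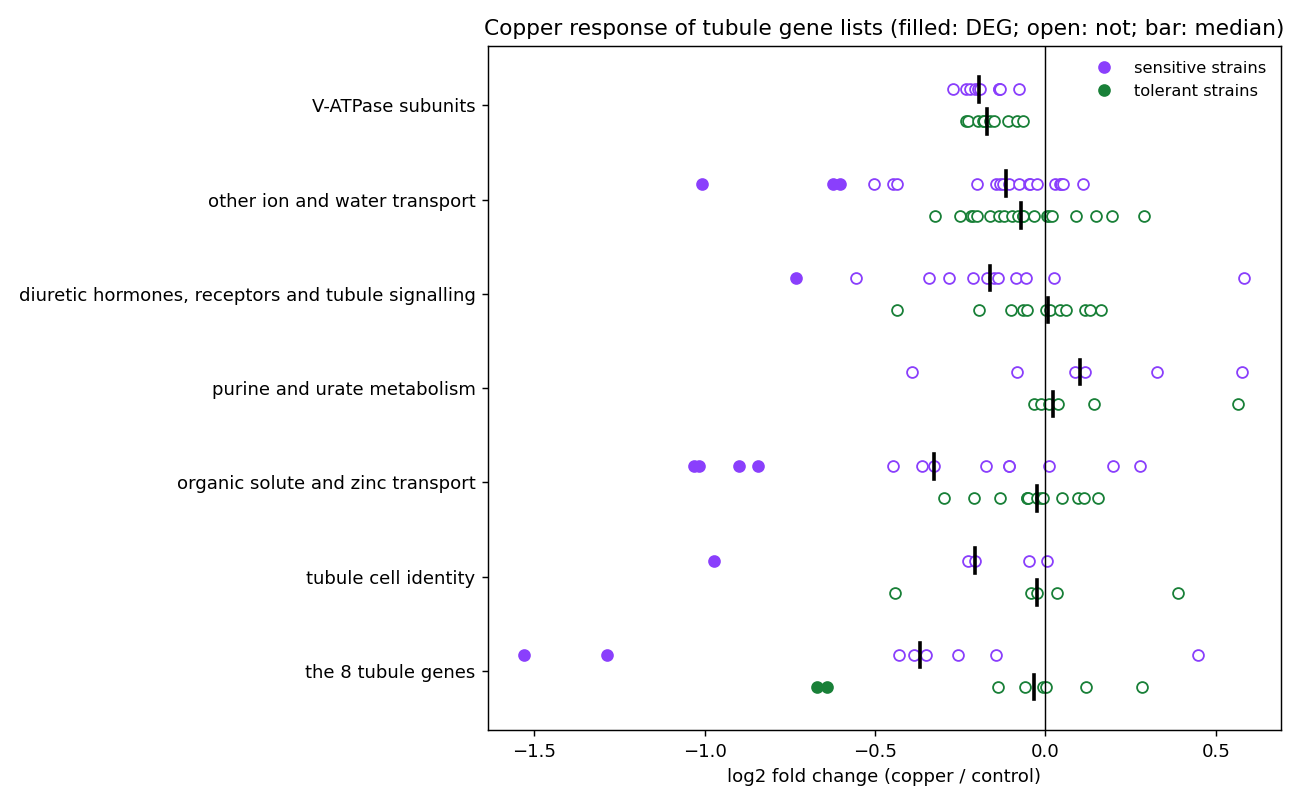
Log2 fold change of copper over control (x axis) of each tested gene in 6 tubule lists and of the 8 tubule genes (y axis), with sensitive strains (purple) above tolerant strains (green), filled points for genes called at an adjusted *p*-value under 0.05 and a fold change over 1.5, and bars at the list median. Filled points in tolerant strains are *Irk3* and *salt* only, and no called gene lies right of 0.

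Markers of several other tissues moved with copper in the same libraries. In the sensitive strains 5 of 7 midgut, 4 of 7 fat body, 2 of 4 muscle, 2 of 4 ovary, 2 of 4 haemocyte and 2 of 5 male markers fell (edgeR). Of all genes 5.94% were called lower there, and the other 2 ovary markers had higher values. In the tolerant strains 1 of 7 midgut and 1 of 7 fat body markers fell, against 0.509% of all genes. There 3 of 4 haemocyte markers rose, against 1.53% of all genes called in either direction. In each class 0 of 4 neuron and 0 of 2 hindgut markers were called. Mean summed CPM of 7 midgut markers was 1187 with copper in COR-018 against 3379 in controls, 4199 against 8655 in AKA-018, 1465 against 2138 in JUT-008, 5243 against 7789 in MUN-020 and 3647 against 4578 in MUN-008. In GIM-012, where *Irk3* and *salt* overlapped, it was 5978 with copper against 4162 in controls. The 7 fat body markers summed to 14722 CPM with copper in GIM-012 against 8727 in controls, and to 7962 against 16694 in COR-018. The mean summed CPM of 4 ovary markers was lower with copper in all 6 strains, at 962 against 2199 in GIM-012, with copper and control libraries overlapping in JUT-008 and MUN-020. The summed CPM of the 5 tubule identity markers was below all controls in every copper library of the 5 strains in which *Irk3* and *salt* were. Its mean was 316 with copper against 357 in controls in AKA-018, 202 against 391 in COR-018, 140.4 against 165 in JUT-008, 285 against 375 in MUN-008 and 233 against 317 in MUN-020. In GIM-012 it was 229 with copper against 206 in controls, with overlap. Median levels were 116 CPM for *Alp4* and 89.8 CPM for *Hnf4*, against 22.1 (*ct*), 13.4 (*tsh*) and 4.13 (*tio*), so the sum mostly followed *Alp4* and *Hnf4*. Of the 5 markers only *Alp4* was called in the sensitive strains, and 0 in the tolerant strains. The AKA-018 gap was narrow, with the highest copper library at 352.0 CPM and the lowest control at 354.5 CPM. So was the JUT-008 gap, at 149.2 and 151.4 CPM. No share over all genes was worked out for such a sum. In controls 3 of 5 male markers were higher in sensitive than in tolerant strains, against 5.36% of all genes called in either direction. The part of these markers in the tubule results was not tested.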

How the data were processed

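The deposited table holds raw counts per gene, which the authors made from stranded 125 bp paired-end mRNA reads with Trim Galore 0.5.0, cutadapt 1.18, STAR 2.6 (dm6) and featureCounts 1.6.2 in reverse-stranded mode, without reads that mapped to several places or several genes. The authors' label for this table mentions removing males, a step not described in the sources used here.

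Groups came from the sample labels. Counts were tested with edgeR 4.0.16 (quasi-likelihood, TMM, filterByExpr, R 4.3.3): strain and treatment within each class, treatment by class over all libraries, class among controls, and 12 strain and treatment groups for single strains. DESeq2 1.42.0, other normalizations and filters, single libraries or strains left out, a replicate block and summed counts were alternatives. Simulated data were used to check the copper tests of each class and of MUN-020, the class tests, and the F-test among tolerant controls. The other single strains, the F-test of strain by treatment and the summed counts were not simulated. All genes were simulated with the same spread, and with no strain differences beyond the genes changed. CPM used TMM library sizes, and log2 CPM a prior count of 0.5.

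The 8 genes and the lists were chosen with earlier results of these data known. Named list genes were up to 3 called in each direction per comparison, with *Mdr50* named beyond that limit. For *Irk3* and *salt* the 5 genes (mean CPM of at least 1) most correlated over groups were named. *Dh44*, *ry*, *fray* and the V-ATPase genes named were chosen after their values were seen. Names and coordinates came from the Ensembl BDGP6.54 annotation. 14 listed genes were not analysed here. Replicate pairs differed beyond sampling noise (chi-square per degree of freedom 8.76 to 276), and nothing says whether they came from separate cultures, so *p*-values measure the spread between these libraries. The highest values, 276 and 141, were both for pairs with GIM-012 copper replicate 1.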

Additional observations from a re-analysis of the deposited data

Results flagged for a closer look

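The copper response of sensitive minus tolerant strains, on the log2 scale, was -0.63 for *Irk3*, -0.90 for *salt* and -0.56 for *Ncc69*. The contrast that chose these genes enters this difference, so the values are descriptions with no test. Among other tubule genes it was -0.90 for *Eglp2*, -0.91 for *Oatp58Da*, -0.86 for *Oatp58Db*, -0.73 for *Oatp33Ea*, -0.54 for *nrv2* and 0.28 for *mal*, each at an edgeR adjusted *p*-value under 0.05 with libraries as replicates. With counts summed per strain and treatment, and without COR-018, JUT-008 or GIM-012, none of these 9 genes was past the threshold.

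Among the 3 tolerant strains, the copper response differed between strains for *Irk2* (adjusted *p*-value 0.00519), *salt* (0.00976) and *Irk3* (0.0111, edgeR). This F-test was added after the data were seen, and 27.7% of all genes passed it. *Irk3* and *salt* were lower with copper in MUN-008 and MUN-020 and overlapped controls in GIM-012. *Irk2* was higher in all 3 GIM-012 copper libraries than in the controls of that strain.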

How the results depend on the processing

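Of 1220 fold changes of the 8 genes under alternatives, 1136 kept their sign. A change of call was counted for 27. Lost or gained calls were not counted in the sensitive strains, in the class difference, or for *Irk3* and *salt* in controls. The calls lost in the class difference are thus not among the 27. All 84 sign changes were of values within 2 SE of 0. In the tolerant strains, the calls of *Irk3* and *salt* held under DESeq2, other normalizations and other filters. With a replicate block, *Irk3* was at -0.66 (adjusted *p*-value 0.0973) and *salt* at -0.64 (0.198), and 0 of 2 calls held. Without MUN-020 they were at -0.49 and -0.47, and without MUN-008 at -0.61 and -0.48, again with 0 calls. Leaving out 1 library gave -0.76 to -0.60 for *Irk3* and -0.74 to -0.54 for *salt*, with 1 to 2 genes called. The replicate numbers did not pair the libraries: of 15 same-numbered pairs 2 correlated above 0.1 (median -0.1).

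Counts over all genes moved more. With a replicate block the tolerant count was 93 (177 without), the sensitive count 542 (954) and the difference count 10 (517). The tolerant count was 85 without MUN-008, and the sensitive count 497 without COR-018 and 567 without JUT-008. The difference count was 1008 with DESeq2, 1154 without AKA-018, 22 without COR-018, 142 without JUT-008, 41 without GIM-012, 1395 without MUN-020, 0 with counts summed per strain and treatment, and 309 to 819 without 1 library. The control count between classes (655) was 11 with at least 10 counts in every library, 1093 without AKA-018, 6 without GIM-012, 21 without MUN-008, 275 without MUN-020 and 381 to 761 without 1 library. GIM-012 alone gave 622 (1552) and 761 to 2262 without 1 library, MUN-008 264 with DESeq2 (173) and 99 to 198, and MUN-020 alone 470 (93) and 11 to 66. The cause was not tested.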
